A study of Mus musculus with 12 samples.

Results

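The genes that copy DNA were followed through RNA-seq of mouse fibroblasts: 50 genes of origin licensing, helicase, polymerase, clamp loading, nucleotide supply, entry into S phase and chromatin assembly, taken by symbol out of 54446 genes in the counts table. All 50 were found and all 50 passed the filter on low counts, among 14724 genes tested. The cells were wild-type NIH3T3, an embryo fibroblast line, and ΔN-VEGF cells (dN-VEGF in the plots), made from NIH3T3 by Cas9, guide RNAs and donor cassettes that replaced the N-VEGF coding sequence of Vegfa on both alleles. The cassettes were later removed with VCre delivered by a retrovirus and nonfluorescent cells were sorted, so that the ΔN-VEGF cells descended from picked clones and had passed through infection and sorting that the wild-type cells had not. Which clone was sequenced is not stated in the sources used here. Each line was kept in normoxia or for 16 h below 0.2% oxygen, with 3 samples per group and 12 in all. The labels do not say whether the 3 samples were separate cultures, and p-values measure the spread between these samples, which may be technical.

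Replication is prepared in G1, when the origin recognition complex, Cdc6 and Cdt1 load the MCM2-7 helicase onto DNA. In S phase the kinase Cdc7 with its activator Dbf4, together with cyclin E and its kinase, turns the loaded helicase on by adding Cdc45 and the GINS complex. Polymerase alpha with primase then lays down primers, polymerases delta and epsilon extend them on the PCNA clamp, and new histones are placed behind the fork by CAF-1. Most of these genes are transcribed from late G1 under E2F factors, and their RNA level is widely used as a sign of how many cells are in late G1 and S phase. NIH3T3 cells stop in G1 when they become confluent or lose serum.

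Letters that E2F factors are known to bind were searched in the promoters, and a few matches are shown to let them be seen in members described below. RefSeq promoters (GRCm38.p6, 250 bases before to 50 after the start) were at hand for 41 of the 50 genes, with 49 promoters. Letters TTTCCCGC, TTTGGCGC, TTTGCCGC or TTTCGCGC on either strand were found in 30.6% of the 49 promoters and in 2.26% of all 32851 promoters of this length. The letters CCAAT on either strand were in 55.1% and 37.4%. Counted by gene, 15 of 41 members held an E2F match, among them Mcm3, Mcm5, Mcm6, Mcm7, Cdc6, Cdt1, Orc1, Pola1 and E2f2. A match is a description of letters and not a shown binding site. The windows below have 30 bases each, read 5′ to 3′ on the strand of the gene, with the E2F letters in capitals. They lie outside annotated GENCODE M21 exons.
Mcm5, chr8:75109347-75109376, plus strand, matches on both strands joined: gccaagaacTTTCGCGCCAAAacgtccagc
Mcm6, chr1:128359795-128359824, minus strand, matches on both strands joined: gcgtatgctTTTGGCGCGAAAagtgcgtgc
Mcm6, chr1:128359734-128359763, minus strand: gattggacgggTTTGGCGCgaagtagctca
Cdc6, chr11:98908002-98908031, plus strand: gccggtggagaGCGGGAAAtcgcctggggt
Pola1, chrX:93632275-93632304, minus strand: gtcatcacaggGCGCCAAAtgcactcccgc
The Mcm5 match began 153 bases before the annotated start, the 2 Mcm6 runs 110 and 47 bases before it, and the Cdc6 and Pola1 matches 138 bases before it. The Cdc6 window lies inside the span of a longer annotated Cdc6 transcript.

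Counts on genes ranged from 30519052 to 43056690 per sample, and the 10 most abundant genes took 6.96% to 10.5% of them. All 12 hypoxia-response genes listed as a check rose in hypoxia in both lines, and all 9 fibroblast markers stood above 10 CPM (counts scaled to library size, with TMM factors) in every sample. Of 12 markers of epithelial, endothelial and blood cells, 4 exceeded 1 CPM in any sample and 4 had at most 3 counts in every sample; their summed level was 9.27 to 10.6 CPM in wild-type normoxia, 13.2 to 15.4 in wild-type hypoxia, 7.4 to 7.96 in ΔN-VEGF normoxia and 25.7 to 32 in ΔN-VEGF hypoxia, and their part in the results was not tested. Most of the rise in ΔN-VEGF hypoxia was that of Cdh5, an endothelial cadherin, at 19.4 to 24.4 CPM there and 1.28 to 7.29 CPM elsewhere, while Epcam had 0 counts in every sample and Kdr stood at 0.02 CPM or less. Vegfa, the gene that carries the deletion, stood at 86.2, 39.4 and 82.7 CPM in wild-type normoxia and at 37.3, 34.2 and 35.5 CPM in ΔN-VEGF normoxia. These gene counts do not test the deletion, which removed a small stretch of the gene.

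The library wild-type normoxia 2 stood apart. Its log2 CPM over all tested genes correlated at 0.956 and 0.957 with the other wild-type normoxia samples, which correlated with each other at 0.996, and at 0.975 to 0.984 with the 3 ΔN-VEGF normoxia samples. Its line label was compared with genes that differed at least 4-fold between wild-type hypoxia and all ΔN-VEGF samples without overlap. Nearness was taken to the mean of wild-type hypoxia or to that of all ΔN-VEGF samples. Wild-type normoxia 2 was nearer to wild-type hypoxia for 10 of the 14 genes higher there and for 9 of the 9 higher in ΔN-VEGF. The same counts were 9 of 14 and 5 of 9 for each of wild-type normoxia 1 and 3, so that this comparison separates the lines only in part in normoxia. Scrn1, chosen after its values were seen, stood at 11.9, 6.76 and 12 CPM in wild-type normoxia and at no more than 0.118 CPM in any ΔN-VEGF sample. The sample numbered 2 of ΔN-VEGF normoxia also differed from its group, with correlations of 0.986 against 0.996 for the other pair. The comparisons that include wild-type normoxia 2 are therefore given with and without it.

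The replication genes were high in that library. Summed over the 50 genes, RNA stood at 1587, 6031 and 1557 CPM in wild-type normoxia, 2103, 2149 and 2084 in wild-type hypoxia, 3580, 5616 and 3587 in ΔN-VEGF normoxia and 1104, 1153 and 1108 in ΔN-VEGF hypoxia. Wild-type normoxia 2 was above the mean of samples 1 and 3 by 1.64-fold to 7.54-fold over the members, with a median of 3.66-fold, against 1.01-fold over all tested genes. In ΔN-VEGF normoxia, sample 2 exceeded the mean of the other two by 1.02-fold to 2.55-fold, with a median of 1.57-fold, against 1.02-fold over all genes. For 47 of 50 members the 2 highest of all 12 samples were these normoxia samples numbered 2, as for 18.6% of all tested genes. At the other end, the 3 lowest samples were all ΔN-VEGF hypoxia for 35 members, against 16.4% of all genes. Fewer cells in S phase and less RNA per cell cannot be told apart in such bulk samples, and cell density or cycle phase was not measured in these files.

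**Figure D1:**
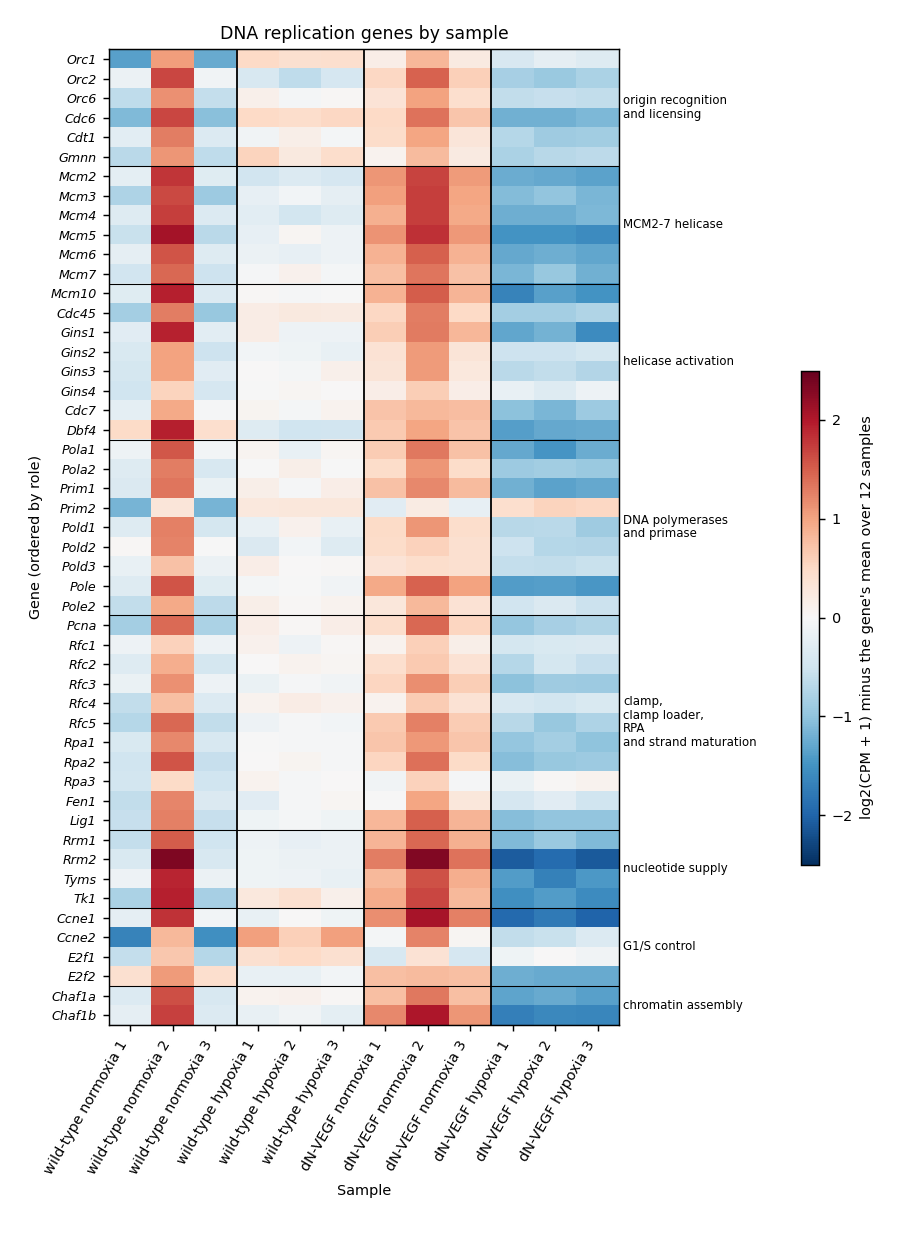
Level of each of the 50 DNA replication genes (rows, ordered by role) in each of the 12 samples (columns), as log2(CPM + 1) minus the mean of the gene over the 12 samples. Wild-type normoxia 2 and dN-VEGF normoxia 2 hold the 2 highest levels for 47 genes, and the 3 dN-VEGF hypoxia samples hold the 3 lowest for 35. Wild-type normoxia 1 and 3 each hold the single lowest level for 6 genes, among them Orc1 and Ccne2.

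In each of the 8 roles, the sample numbered 2 was the highest of both normoxia groups. For the 6 genes of the MCM2-7 helicase, the summed level was 457, 2087 and 431 CPM in wild-type normoxia, 544, 582 and 549 in wild-type hypoxia, 1243, 1995 and 1226 in ΔN-VEGF normoxia and 267, 281 and 260 in ΔN-VEGF hypoxia. For the 4 genes of nucleotide supply, the same sums were 172, 890 and 178, then 250, 247 and 240, then 492, 822 and 499, then 100, 110 and 99.2 CPM. In both roles the ΔN-VEGF hypoxia samples lay below every other sample. The 4 genes of G1/S control differed, with 54.1, 166 and 53.8 CPM in wild-type normoxia and 56.1, 60.7 and 57.5 in ΔN-VEGF hypoxia, groups that overlapped.

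**Figure D2:**
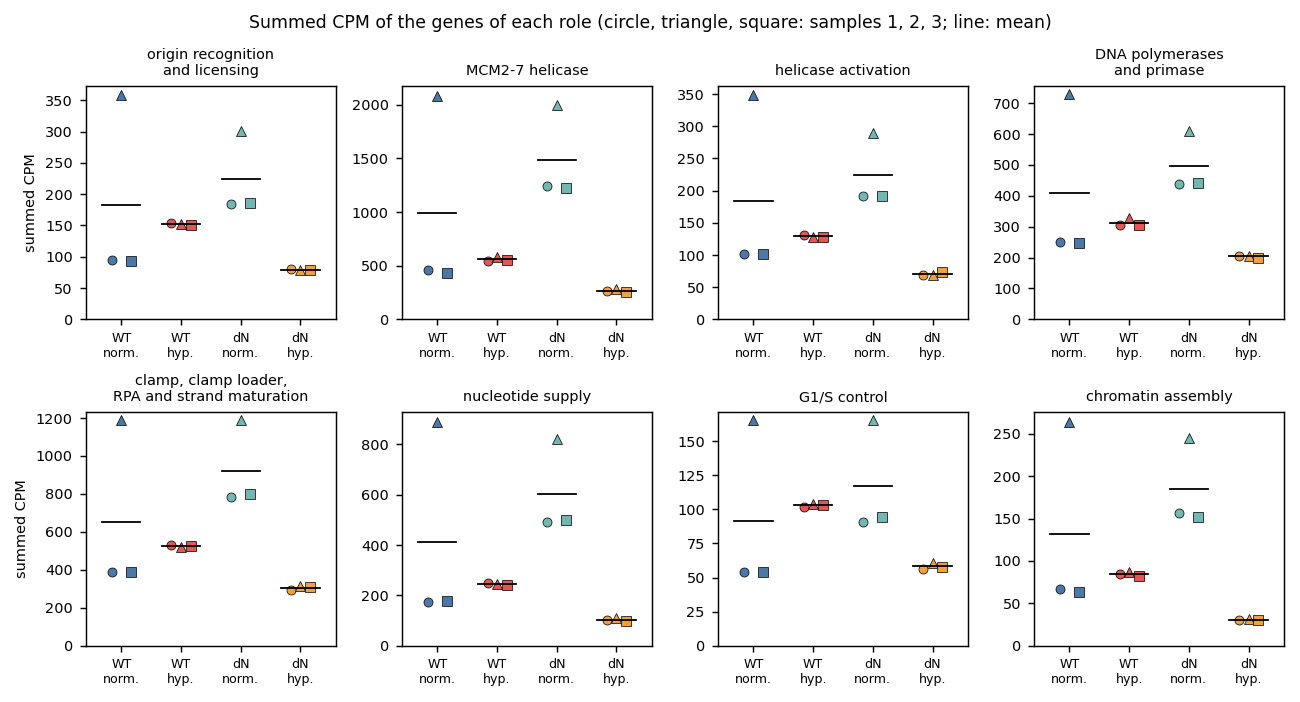
Summed CPM of the genes of each of the 8 roles (y axis, from 0) in the 4 groups (WT, wild type; dN, dN-VEGF; norm., normoxia; hyp., hypoxia), with 1 point per sample and a line at the group mean. The triangle of sample 2 stands above the circle and square in both normoxia groups of every role, while the 3 hypoxia samples of each line lie close together.

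Hypoxia lowered most replication genes in ΔN-VEGF cells. With p-values of edgeR's quasi-likelihood test adjusted over all tested genes, 43 of 50 members fell (adjusted p below 0.05) and 0 rose, where 26.4% of all tested genes fell and 26.9% rose. By DESeq2, 39 fell (background 19.9%) and 0 rose (background 21.7%), and at an unadjusted p below 0.05 in edgeR 0 were higher (background 29.2%). DESeq2 gave no p-value for 6 members in any of the 5 comparisons, so its member counts here and below leave them out. They were Orc1, Mcm3, Mcm5, Rrm2, Tk1 and Ccne2. A fall of at least 2-fold was called for 41 members and for 12.7% of all genes. The median change of the members was -1.90 on the log2 scale, against -0.01 over all genes. All 3 hypoxia samples lay below all 3 normoxia samples for 47 members, with a background of 35.6%, and above them for 1 member, Prim2, with a background of 34.9%. Wild-type normoxia 2 enters this comparison through the shared estimate of the spread, and without it 47 fell against 34.3% of genes and 1 rose against 32.8%.

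In the helicase, 6 of 6 genes fell, by 2.09 to 2.95 on the log2 scale. Mcm5, a subunit of the ring that unwinds DNA, stood at 218, 352 and 211 CPM in ΔN-VEGF normoxia and 34.3, 34.5 and 32.7 in hypoxia. The groups did not overlap, and the fall was 7.698-fold (log2 fold change -2.94, SE 0.64, adjusted p = 0.00258). Mcm2 stood at 198, 299 and 193 and 38.2, 36.96 and 35.5 CPM in the same groups. Mcm6 stood at 150, 232 and 149 CPM in normoxia and 33.02, 34.6 and 32.6 CPM in hypoxia. Both fell, Mcm2 by 6.23-fold and Mcm6 by 5.301-fold, with adjusted p of 0.000892 and 0.000879. The smallest fall of the ring was that of Mcm7, by 4.26-fold.

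Of the 6 genes of origin recognition and licensing, 5 fell. Cdc6, the loader that brings the helicase to the origin complex, stood at 28.96, 54.03 and 33.3 CPM in ΔN-VEGF normoxia and 8.302, 8.299 and 8.86 in hypoxia. It had the largest fall of the role, 4.57-fold (log2 fold change -2.19, SE 0.66, adjusted p = 0.0157). Cdt1, its partner in loading, stood at 79.9, 116 and 71.7 CPM in normoxia and 34.6, 30.8 and 31.2 CPM in hypoxia. Gmnn, the inhibitor of Cdt1, stood at 11.7, 19.5 and 12.9 CPM in normoxia and 5.89, 6.34 and 6.56 CPM in hypoxia. Loader and inhibitor both fell, by 2.77-fold and 2.35-fold (adjusted p = 0.00707 and 0.0375). Orc1, the subunit of the origin complex that varies through the cell cycle, stood at 14.6, 24.02 and 15.5 CPM in normoxia and 9.65, 10.97 and 10.2 CPM in hypoxia; its samples did not overlap but its test missed the threshold (log2 fold change -0.81, adjusted p = 0.251), and it passed without wild-type normoxia 2 (adjusted p = 0.000489). Orc2 and Orc6 fell by 3.77-fold and 2.44-fold. Orc2 shares 29.8% of its exon bases with Nif3l1 on the opposite strand, and since the library kit does not mark strand, reads of such pairs cannot be told apart.

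Among the 8 genes that turn the helicase on, 7 fell. Gins1, a subunit of the GINS complex, had the largest fall, from 5.9, 10.1 and 7.01 CPM to 0.846, 0.997 and 0.521 CPM (9.71-fold, adjusted p = 0.0019). Cdc45, which binds the helicase with GINS, stood at 41.1, 70.1 and 40.5 CPM in normoxia and 15.2, 15.3 and 16.4 CPM in hypoxia. Gins2 stood at 21.9, 36.1 and 21.1 CPM in normoxia and 11.4, 11.4 and 11.96 CPM in hypoxia; 67.3% of its exon bases are shared with Gse1 on the opposite strand. The samples of both genes did not overlap, with falls of 3.23-fold and 2.28-fold. Dbf4, the activator of the kinase Cdc7, stood at 25.5, 32.02 and 26.6 CPM in normoxia and 5.42, 5.89 and 6.04 in hypoxia, a fall of 4.84-fold (adjusted p = 0.000331). Cdc7 itself fell by 4.04-fold and Mcm10, which helps start the helicase, by 6.797-fold. Gins4 did not pass, at 27.9, 38.8 and 28.1 CPM in normoxia and 21.8, 19.6 and 22.5 CPM in hypoxia (adjusted p = 0.0826; 0.000729 without wild-type normoxia 2).

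Polymerases and primase gave 8 falls among 9 genes, with Prim2 as the exception. Pole, the catalytic subunit of the leading-strand polymerase, stood at 68.6, 98.6 and 70.8 CPM in ΔN-VEGF normoxia and 12.6, 12.7 and 12.1 in hypoxia, the largest fall of the role (6.36-fold, adjusted p = 0.000511). Pola1, the catalytic subunit of polymerase alpha, stood at 31.6, 51.4 and 34.01 CPM in normoxia and 7.61, 6.53 and 7.88 CPM in hypoxia and fell by 5.31-fold. The primase has a catalytic subunit, Prim1, and a regulatory one, Prim2. Prim1 stood at 23.2, 32.6 and 24.4 CPM in normoxia and 5.33, 4.76 and 5.03 in hypoxia, a fall of 5.31-fold (adjusted p = 0.000484). Prim2 stood at 31.6, 45.1 and 33.5 CPM in normoxia and 52.2, 57.5 and 56.05 in hypoxia, higher in every hypoxia sample (log2 fold change 0.59, adjusted p = 0.166). The change of Prim2 was 0.58 without wild-type normoxia 2 and passed (adjusted p = 0.000411). The subunits of polymerase delta fell less than Pole, Pola1 and Prim1: Pold1 by 2.81-fold, Pold2 by 2.21-fold and Pold3 by 2.04-fold. Pole2, a further subunit of polymerase epsilon, also fell less (log2 fold change -1.02).

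In the role of clamp, clamp loader, RPA and strand maturation, 9 of 11 genes fell. Lig1, the ligase that joins Okazaki fragments, had the largest fall, from 193, 310 and 196 CPM to 51.8, 54.4 and 54.7 CPM (4.34-fold, adjusted p = 0.0018). Pcna, the sliding clamp, stood at 82.97, 168 and 88.9 CPM in normoxia and 30.8, 34.03 and 35.8 CPM in hypoxia and fell by 3.38-fold. The clamp loader, which opens the clamp and sets it on DNA, has a large and several small subunits. Rfc3 and Rfc5 fell by 3.67-fold and 3.37-fold, while Rfc4, at 6.85, 10.5 and 8.405 CPM in normoxia and 4.54, 4.34 and 4.66 CPM in hypoxia, fell by 1.899-fold and Rfc1, the large subunit, by 1.62-fold. RPA, which coats single-stranded DNA at the fork, has 3 subunits. Rpa1 and Rpa2 fell by 3.44-fold and 3.85-fold (adjusted p = 0.00165 and 0.00911). Rpa3, the smallest subunit, stood at 15.3, 24.7 and 16.03 CPM in normoxia and 14.5, 16.6 and 17.3 CPM in hypoxia, overlapping groups with a log2 fold change of -0.21 (adjusted p = 0.531). Fen1, the flap nuclease, stood at 2.54, 6.09 and 3.33 CPM in normoxia and 1.69, 1.93 and 1.53 CPM in hypoxia (adjusted p = 0.096); 84.2% of its exon bases overlap genes on the opposite strand, and its low level is uncertain for that reason.

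Nucleotide supply held the largest fall of the 50 genes, and 4 of its 4 genes fell. Rrm2, the S-phase subunit of ribonucleotide reductase, stood at 95.8, 199 and 102 CPM in ΔN-VEGF normoxia and 8.49, 9.55 and 8.401 in hypoxia. The fall was 14.97-fold (log2 fold change -3.904, SE 0.70, adjusted p = 0.000738). Its partner subunit Rrm1 stood at 268, 406 and 275 CPM in normoxia and 68.95, 77.2 and 68.9 CPM in hypoxia, a fall of 4.42-fold. Tyms and Tk1 supply thymidylate by synthesis and by salvage. Tyms stood at 31.5, 54.9 and 33.5 CPM in normoxia and 5.98, 4.73 and 5.79 CPM in hypoxia. Tk1 stood at 96.02, 162 and 88.2 CPM in normoxia and 16.8, 18.4 and 16.2 CPM in hypoxia. The falls were 7.25-fold and 6.76-fold, with no overlap between samples.

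In G1/S control 2 of 4 genes fell, 1 cyclin E and 1 E2F factor. Ccne1, a cyclin E that drives entry into S phase, stood at 39.3, 74.3 and 42.1 CPM in normoxia and 3.73, 4.34 and 3.495 in hypoxia, a fall of 13.5-fold (adjusted p = 0.00016). Ccne2, the other cyclin E, stood at 7.51, 19.99 and 8.18 CPM in normoxia and 4.82, 5.05 and 6.04 CPM in hypoxia (log2 fold change -1.16, adjusted p = 0.177). Without wild-type normoxia 2 the value was -1.17 with an adjusted p of 0.00495. With both normoxia samples numbered 2 left out it was smaller, at -0.57 (adjusted p = 0.000905). Of the activating E2F factors, E2f2 stood at 6.57, 6.704 and 6.52 CPM in normoxia and 0.908, 0.869 and 0.859 in hypoxia, with the lowest adjusted p of the set (1.39e-06) and a fall of 7.49-fold. E2f1 stood at 37.7, 64.8 and 37.2 CPM in normoxia and 46.6, 50.5 and 47.2 CPM in hypoxia, and the groups overlapped. Its log2 fold change of 0.05 (adjusted p = 0.92) turned to -0.35 when samples were scaled by total counts alone. Of 21 alternatives 1 gave a call: E2f1 rose by 0.35 (adjusted p = 4.98e-05) without both normoxia samples numbered 2. The 2 subunits of the histone chaperone CAF-1 fell. Chaf1a went from 106, 156 and 106 CPM to 24.3, 25.4 and 23.7 CPM, where 52.5% of its exon bases are shared with Ubxn6 on the opposite strand. Chaf1b went from 50.1, 89.7 and 46.8 CPM to 5.83, 6.34 and 6.25 CPM, a fall of 10.1-fold (adjusted p = 0.000315).

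**Figure D3:**
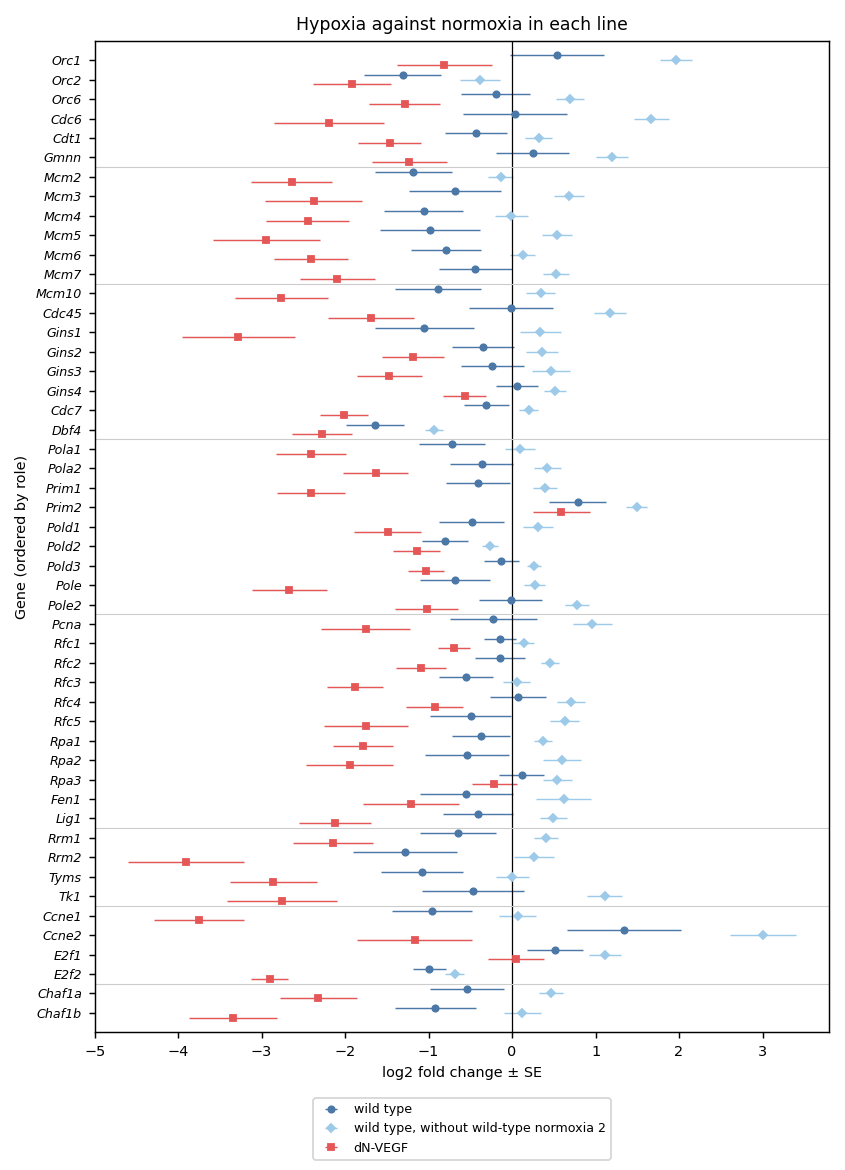
log2 fold change of hypoxia against normoxia (x axis, bars are ± SE) for each of the 50 genes (y axis) in wild-type cells, in wild-type cells without wild-type normoxia 2, and in dN-VEGF cells. The dN-VEGF points lie at a median of -1.90, with Prim2 and E2f1 right of 0, while the wild-type median moves from -0.45 to 0.41 when wild-type normoxia 2 is left out.

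In wild-type cells the answer depended on a single library. With all samples, 4 members fell and 0 rose, with a background of 18.3% and 18.2%, and the median was -0.45 against -0.07 over all genes. By DESeq2, 5 fell and 0 rose, with a background of 15.9% and 15.7%. At an unadjusted p below 0.05, 7 were lower and 1 was higher, with a background of 24% and 22.1%. All 3 hypoxia samples lay below all normoxia samples for 5 members, with a background of 21.8%, and above them for 0 members, with a background of 23.2%. The median turned to 0.41 without wild-type normoxia 2, with 35 members going from a negative to a positive value (background 9.74%), and 27 members rose and 3 fell, with a background of 27.1% and 26.9%. All 3 hypoxia samples lay above wild-type normoxia 1 and 3 for 37 members (background 36.3%) and below both for 5 (background 37.7%).

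The 4 genes that fell with all samples were Dbf4, E2f2, Orc2 and Pold2. Dbf4 stood at 22.4, 63.6 and 21.5 CPM in wild-type normoxia and 12.5, 10.9 and 10.98 in hypoxia, a fall of 3.13-fold (adjusted p = 0.00366). E2f2 stood at 4.88, 8.31 and 4.99 CPM in normoxia and 2.93, 2.91 and 3.29 CPM in hypoxia, a fall of 1.99-fold (adjusted p = 0.00243). In both, the hypoxia samples lay below every normoxia sample, and both fell without wild-type normoxia 2 as well (log2 fold changes -0.93 and -0.69). Pold2 fell in both fits (-0.80 and -0.26). Orc2 went from -1.31 (adjusted p = 0.0447) to -0.39 (adjusted p = 0.187) and lost its call. It was called again when both normoxia samples numbered 2 were left out (-0.38, adjusted p = 0.000574).

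The licensing and G1/S genes Ccne2, Cdc6, Orc1, Gmnn and E2f1 and the primase gene Prim2 were higher in wild-type hypoxia than in wild-type normoxia 1 and 3. Of these 6, sample 2 lay among the hypoxia samples for Ccne2 and above all of them for the others. Ccne2 stood at 1.78, 14.6 and 2.08 CPM in normoxia and 17.03, 12.5 and 16.9 in hypoxia, with a log2 fold change of 1.34 (adjusted p = 0.149) that became 3.01 (adjusted p = 3.3e-05) without sample 2. Cdc6 stood at 8.95, 66.6 and 9.305 CPM in normoxia and 29.2, 27.9 and 29.5 CPM in hypoxia. Orc1 stood at 4.45, 27.9 and 4.82 CPM in normoxia and 18.8, 17.5 and 17.7 CPM in hypoxia. Without sample 2 both rose, by 1.67 and 1.96 on the log2 scale, from 0.03 and 0.54 with it. Gmnn stood at 6.46, 24.7 and 6.67 CPM in normoxia and 16.6, 13.05 and 15.2 CPM in hypoxia. E2f1 stood at 33.05, 80.4 and 30.5 CPM in normoxia and 66.8, 71.5 and 66.9 CPM in hypoxia. Both had values of the same kind, 0.25 and 0.51 with all samples (adjusted p = 0.689 and 0.252) and 1.19 and 1.11 without sample 2. Prim2 stood at 16.9, 48.3 and 16.8 CPM in normoxia and 47.01, 47.4 and 47.3 CPM in hypoxia, with 0.79 (adjusted p = 0.0934) and 1.49.

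Of the 10 helicase and nucleotide supply genes, 0 passed in wild-type cells with all samples by edgeR. Over all genes 18.3% fell and 18.2% rose. Mcm2, Mcm4 and Tyms were lower at an unadjusted p below 0.05, with the background given above. DESeq2 called Mcm2 (adjusted p = 0.0337) and gave no p-value for Mcm3, Mcm5, Rrm2 and Tk1. Once sample 2 was left out Mcm3, Mcm5, Mcm7, Rrm1 and Tk1 rose, and Mcm2, Mcm4, Mcm6, Rrm2 and Tyms did not pass, with values from -0.14 to 0.27. Of the latter, Rrm2 was called higher (adjusted p = 0.00103) and Mcm2 lower (adjusted p = 0.0459) when both normoxia samples numbered 2 were left out. Mcm2 stood at 77.2, 316 and 74.1 CPM in wild-type normoxia and 64.97, 72.3 and 68.2 in hypoxia. Mcm5 stood at 66.8, 423 and 61.5 CPM in normoxia and 85.5, 103 and 90.6 CPM in hypoxia, and Mcm6 at 69.3, 245 and 64.98 CPM in normoxia and 73.5, 70.5 and 74.9 CPM in hypoxia. The log2 fold changes of Mcm2, Mcm5 and Mcm6 were -1.19, -0.98 and -0.79 with all samples and -0.14, 0.54 and 0.13 without sample 2. Rrm2 stood at 29.9, 200 and 29.4 CPM in normoxia and 36.2, 35.4 and 35.1 CPM in hypoxia, with -1.28 and 0.27. Tyms stood at 15.98, 68.4 and 15.6 CPM in normoxia and 16.1, 15.9 and 15.3 CPM in hypoxia, with -1.08 and 0.00. Of the 5 genes given here by sample, Mcm5 passed in the second fit (adjusted p = 0.0224) and none in the first, where the lowest adjusted p was 0.0663 for Mcm2.

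For each of the other genes listed by sample, sample 2 was the highest of the wild-type normoxia samples, and the changes differed in size. Cdt1 stood at 47.9, 141 and 45.2 CPM in normoxia and 54.3, 63.9 and 55.5 in hypoxia. Cdc45 stood at 15.3, 70.5 and 14.2 CPM in normoxia and 32.4, 33.9 and 33.2 CPM in hypoxia, and Gins2 at 12.5, 34.3 and 11.3 CPM in normoxia and 15.8, 15.3 and 14.6 CPM in hypoxia. In each of the 3, sample 2 of normoxia was above every hypoxia sample. Pola1 stood at 18.3, 60.5 and 18.995 CPM in normoxia and 21.1, 17.5 and 20.8 CPM in hypoxia. Pole stood at 27.9, 106 and 28.2 CPM in normoxia and 33.6, 34.6 and 32.8 CPM in hypoxia. Pcna stood at 33.5, 165 and 35.1 CPM in normoxia and 68.9, 62.4 and 68.5 CPM in hypoxia. The clamp gene was above both lower normoxia samples in hypoxia, and so were Pole and Cdc45. Without sample 2, Cdc45 (1.17, adjusted p = 0.000254) and Pcna (0.96, adjusted p = 0.00389) rose. Cdt1, Gins2, Pola1 and Pole had values from 0.09 to 0.36 that did not pass there. When both normoxia samples numbered 2 were left out, Cdt1, Gins2 and Pole rose (adjusted p = 0.000999, 0.000402 and 0.000622) and Pola1 did not pass (0.332). Rfc4 stood at 3.79, 11.4 and 4.82 CPM in normoxia and 6.78, 7.33 and 6.88 CPM in hypoxia. Rpa3 stood at 11.7, 23.1 and 11.2 CPM in normoxia and 17.4, 15.96 and 16.3 CPM in hypoxia. Fen1 stood at 1.32, 7.38 and 1.77 CPM in normoxia and 1.95, 2.5 and 2.701 CPM in hypoxia. None of these 3 passed with all samples. Without sample 2 Rfc4 (0.70, adjusted p = 0.00363) and Rpa3 (0.54, adjusted p = 0.0198) rose and Fen1 was at 0.62 (adjusted p = 0.133). Fen1 passed when both normoxia samples numbered 2 were left out (0.61, adjusted p = 0.00827). Lig1 stood at 72.99, 262 and 73.02 CPM in normoxia and 101, 106 and 101 CPM in hypoxia. Rrm1 stood at 98.03, 426 and 104 CPM in normoxia and 137, 130 and 134 CPM in hypoxia. Tk1 stood at 28.4, 195 and 27.9 CPM in normoxia and 60.9, 66.1 and 55.04 CPM in hypoxia. All 3 turned from a negative to a positive value without sample 2, the largest being 1.11 for Tk1 (adjusted p = 0.000611). Ccne1 stood at 14.4, 62.5 and 16.2 CPM in normoxia and 14.9, 17.3 and 15.8 CPM in hypoxia. Chaf1a stood at 48.9, 192 and 46.7 CPM in normoxia and 66.5, 67.3 and 63.9 CPM in hypoxia. Chaf1b stood at 18.1, 72.01 and 16.6 CPM in normoxia and 18.6, 20 and 17.8 CPM in hypoxia. Of the chaperone subunits, Chaf1a rose without sample 2 (0.47, adjusted p = 0.0133). Gins1 stood at 2.74, 16.2 and 2.79 CPM in normoxia and 4.13, 3.15 and 3.16 CPM in hypoxia. Gins4 stood at 17.3, 37.2 and 18.2 CPM in normoxia and 24.8, 25.9 and 25.05 CPM in hypoxia. Prim1 stood at 10.3, 35.9 and 12.1 CPM in normoxia and 15.1, 13.3 and 15.4 CPM in hypoxia. None of these 3 passed with all samples, and without sample 2 Gins4 and Prim1 rose, by 0.51 and 0.39 on the log2 scale.

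**Figure D4:**
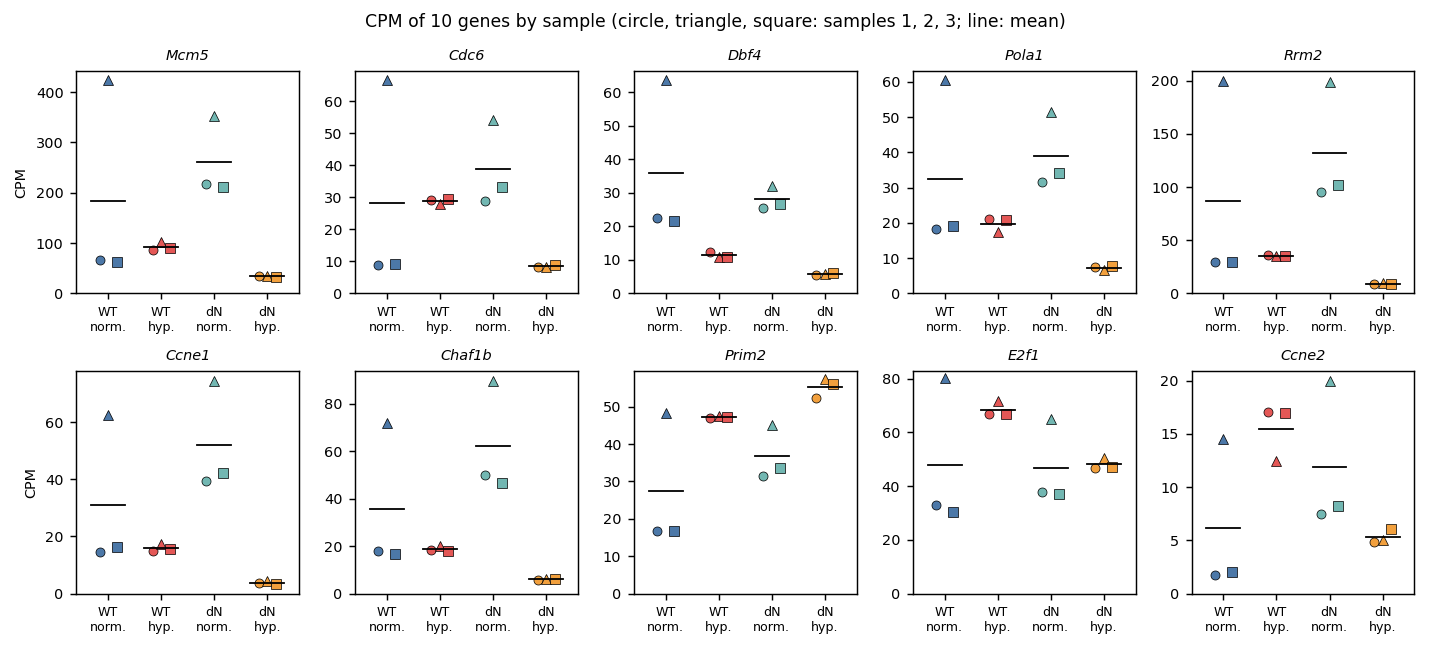
CPM (y axis, from 0) of 10 genes in the 4 groups, with 1 point per sample and a line at the group mean. Mcm5, Rrm2, Ccne1 and Chaf1b are lowest in dN-VEGF hypoxia, Prim2 is highest there, and Ccne2 and E2f1 are higher in the 3 wild-type hypoxia samples than in wild-type normoxia 1 and 3.

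The 2 lines were then compared in hypoxia. The hypoxia samples of each line were close together, and all 3 ΔN-VEGF samples lay below all 3 wild-type samples for 48 members, with a background of 30.1%, and above them for 1 member, Prim2, with a background of 29.7%. In the fit over 12 samples 10 members fell and 0 rose, with a background of 9.36% and 10.8%, and the median was -0.93 against -0.02 over all genes. By DESeq2, 17 fell and 0 rose, with a background of 9.41% and 11.5%. Wild-type normoxia 2 is in neither group and enters through the shared spread; without it 44 fell and 0 rose, with a background of 21.2% in each direction. When the 6 hypoxia samples were fitted alone, 48 fell and 1 rose, with a background of 29.1% and 27.9%. Leaving out wild-type normoxia 1 or 3 gave 17 falls each (all genes 9.36% and 9.47%), and leaving out any of the other 9 samples gave 1 to 7 (all genes 4.49% to 9.75%), so that the count of 10 moved with every library.

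The genes called in all 12 samples were E2f2, Ccne1, Cdc7, Gins1, Pola1, Prim1, Pold3, Pole, Chaf1a and Chaf1b. E2f2 had the lowest adjusted p, at 0.000512, and was 3.46-fold lower in ΔN-VEGF cells. Gins1 had the largest difference, 4.41-fold (log2 fold change -2.14, SE 0.67, adjusted p = 0.0455). Ccne1 was 4.14-fold lower, Prim1 2.9-fold and Chaf1b 3.06-fold. In the roles with no call, the largest differences were those of Rrm2 (log2 fold change -2.01, adjusted p = 0.0507), Cdc6 (-1.77, 0.0789), Mcm5 (-1.46, 0.118) and Rpa2 (-1.07, 0.175). All 4 of these passed without wild-type normoxia 2, with adjusted p of 2.61e-05, 1.29e-05, 2.14e-05 and 0.00117. Prim2 differed by 0.23 (adjusted p = 0.689) and Rpa3 by -0.04 (adjusted p = 0.94).

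In normoxia no member passed with all samples: 0 rose and 0 fell, with a background of 1.39% and 2.97%. By DESeq2 the counts were also 0 and 0, with a background of 2.69% and 5.47%. At an unadjusted p below 0.05, 0 were higher and 0 lower, with a background of 6.17% and 12.8%. The median was 0.42, against -0.03 over all genes, with 47 of 50 values above 0 (background 46.8%). No member had groups that did not overlap, with a background of 6.55% higher and 9.72% lower. Without wild-type normoxia 2, 50 of 50 rose in ΔN-VEGF cells, with a background of 25.7%, and 0 fell, with a background of 23.2%, and the median was 1.33. When both normoxia samples numbered 2 were left out, 50 of 50 rose with a median of 1.07, and the background was 27.8% higher and 25.8% lower. The ΔN-VEGF samples 1 and 3 exceeded wild-type samples 1 and 3 for 50 of 50 members (background 38.8%), while wild-type sample 2 exceeded all 3 ΔN-VEGF samples for 38 (background 40.4%).

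Mcm5 shows the case: 66.8, 423 and 61.5 CPM in wild-type normoxia and 218, 352 and 211 in ΔN-VEGF normoxia gave a log2 fold change of 0.50 (SE 0.59, adjusted p = 0.695) with all samples and 2.04 (SE 0.19, adjusted p = 7.18e-06) without that library. The largest value with all samples was that of Ccne2, at 0.96 (adjusted p = 0.491). Per role, the largest others were Mcm3 (0.78), Cdc45 (0.60), Orc1 (0.54), Pole (0.55), Lig1 (0.78), Rrm2 (0.61) and Chaf1b (0.81), with adjusted p from 0.353 for Lig1 to 0.65 for Orc1. Negative values were those of Dbf4 (-0.35), Pold2 (-0.07) and E2f1 (-0.04), and all 3 turned positive without wild-type normoxia 2 (0.36, 0.48 and 0.56). The smallest value of that fit was that of Dbf4 and the largest was 2.63 for Ccne2.

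**Figure D5:**
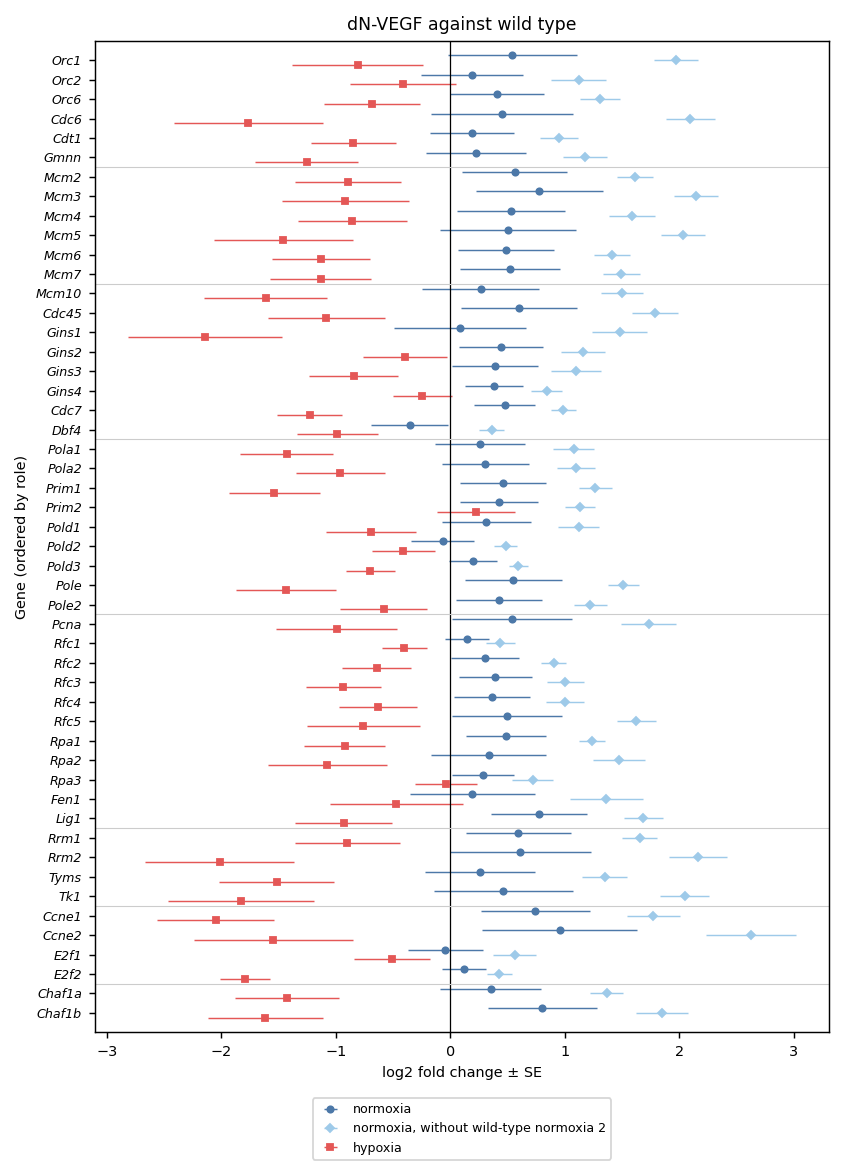
log2 fold change of dN-VEGF against wild type (x axis, bars are ± SE) for each of the 50 genes (y axis) in normoxia, in normoxia without wild-type normoxia 2, and in hypoxia. In hypoxia 49 genes lie below 0 and Prim2 above it; in normoxia the median is 0.42 with all samples and 1.33 without that library.

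The difference between the 2 responses was tested as an interaction, the hypoxia change in ΔN-VEGF minus that in wild type. It was below 0 for all 50 members (background 47.5%), with a median of -1.43, and 2 passed, Cdc7 and E2f2, with a background of 1.15% lower and 2.21% higher. Cdc7 stood at 7.81, 19.2 and 9.29 CPM in wild-type normoxia, 10.04, 9.07 and 10.2 in wild-type hypoxia, 16.2, 17.4 and 16.96 in ΔN-VEGF normoxia and 4.17, 3.76 and 4.57 in ΔN-VEGF hypoxia, an interaction of -1.71 (SE 0.39, adjusted p = 0.0396). That of E2f2 was -1.91 (SE 0.29, adjusted p = 0.00889). Leaving out any 1 sample other than wild-type normoxia 2 ended the call of Cdc7, with adjusted p from 0.0568 to 0.115, and kept that of E2f2. The largest was that of Ccne1, at -2.79 (adjusted p = 0.055), followed by Rrm2 at -2.62 (adjusted p = 0.126) and Ccne2 at -2.503 (adjusted p = 0.172). Without wild-type normoxia 2 these 3 were -3.83, -4.18 and -4.18. In that fit 50 of 50 were called lower, with a background of 23% lower and 21.4% higher, and the median was -2.44. The smallest was then Rpa3 at -0.76 (adjusted p = 0.0185). The comparisons share samples, and the mean of wild-type normoxia enters 3 of the 5.

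Ordered by group mean, 39 of 50 members had ΔN-VEGF normoxia highest, then wild-type normoxia, wild-type hypoxia and ΔN-VEGF hypoxia, an order held by 13.7% of all tested genes. Of all 50 members, the samples of neighbouring groups overlapped for 50 between the lines in normoxia, for 45 between wild-type normoxia and hypoxia and for 1 between the lines in hypoxia. The shares of all genes without overlap are given above with each comparison. With both normoxia samples numbered 2 left out, the most common order, in 31 members and 4.15% of all genes, placed wild-type hypoxia above wild-type normoxia. Per kilobase of exon, the highest group means were those of Mcm3 in ΔN-VEGF normoxia (106 RPKM) and wild-type hypoxia (38.4 RPKM) and of Pold2 in ΔN-VEGF hypoxia (22.6 RPKM, with Mcm3 next at 20.4). E2f2 had the lowest mean level in each of these groups, at 1.35, 0.624 and 0.18 RPKM. The fall in ΔN-VEGF hypoxia was also listed by the E2F letters, as a description. The 15 members with a match had a median log2 fold change of -2.09 (range -2.94 to -0.81). The 26 without one had -1.93 (range -3.90 to 0.05). The 9 members without a promoter at hand are in neither group. The search covered only these exact letters, so the split cannot tell which members E2F factors bind.

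A wider list of 60 other replication and S-phase genes, among them fork and origin factors, topoisomerases, RNase H2, nucleotide enzymes, histone chaperones and the E2F and RB families, was counted in the same way. In ΔN-VEGF cells, 46 of 60 fell and 3 rose in hypoxia, with a median of -1.42 and the background of 26.4% and 26.9% given above. The largest falls were those of Dna2, a flap nuclease and helicase (log2 fold change -3.96, adjusted p = 0.00017), Dscc1, a subunit of the alternative clamp loader (-3.31, 0.000871), and Nasp, a histone chaperone (-3.11, 0.000284). The rises were Pold4, the small subunit of polymerase delta (1.27, 7.65e-07), Rb1, the E2F-binding repressor (0.98, 0.00529), and Rrm2b, the ribonucleotide reductase subunit used outside S phase (0.67, 0.00852). In wild-type cells 17 fell and 1 rose, Pold4 (1.16), against 18.3% and 18.2% of all genes. The largest falls were Nasp (-1.56), Top1 (-1.39) and Top2a (-1.35), which stood at -0.53, -1.31 and -0.71 without wild-type normoxia 2 and passed there too. Between lines, 0 rose and 1 fell in normoxia, Pold4 (-0.53, adjusted p = 0.00891, and -0.53 without wild-type normoxia 2), against 1.39% and 2.97% of all genes. In hypoxia 18 were lower in ΔN-VEGF cells and 0 higher, against 9.36% and 10.8%, led by Dscc1 (-2.51), Hells (-2.09) and Dna2 (-1.90). In the interaction 0 of 60 passed by edgeR, where 30 were lower and 1 higher at an unadjusted p below 0.05 (all genes 8.34% and 12.7%), and 13 were called lower by DESeq2 (all genes 3.33%). Leaving out wild-type normoxia 2, 17 rose and 14 fell in wild-type cells, shares near the 27.1% and 26.9% of all genes. The other counts of rises and falls were then 3 and 51 in ΔN-VEGF cells (all genes 32.8% and 34.3%), 51 and 3 between lines in normoxia (25.7% and 23.2%), 2 and 42 in hypoxia (21.2% each), and 3 and 50 in the interaction (21.4% and 23%).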

How the data were processed

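RNA of 12 samples was sequenced from NIH3T3 and ΔN-VEGF cells. Per the paper's methods and the submitters' processing notes, the authors made TruSeq RNA v2 libraries (the kit does not mark strand), read 80-bp single reads on a NextSeq 550, trimmed them (cutadapt 1.10), aligned them with TopHat2 2.1.0 to GRCm38 with annotation release 94, and counted reads per gene with HTSeq 0.6.1, for which the strand setting is not stated. The values used are these raw counts as deposited by the authors, whole numbers with no scaling or filter. No other per-sample column was in the table.

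Counts were fitted with edgeR 4.0.16 in R 4.3.3 (filterByExpr, TMM, 1 mean per group over the 12 samples, quasi-likelihood F test, Benjamini-Hochberg adjustment over the 14724 genes tested; limma 3.58.1 as its library). A call is an adjusted p below 0.05, and "rose" and "fell" are used for calls. One spread per gene is shared by the 5 comparisons. With 3 against 3 samples an exact permutation test cannot go below p = 0.1 and was not used. CPM are scaled by TMM; RPKM divide CPM by the exon length of GENCODE M21, whose positions equal those in the counts table for 49 of 50 members. Alternatives were DESeq2 1.42.0, RLE factors, total counts, no filter, a minimum of 10 counts per sample, the samples compared alone, replicate number as a block, each sample left out, an adjusted p below 0.01 and a fold of 2; 2 more, both normoxia samples numbered 2 left out and the block within the 6 samples compared, were chosen after seeing the data. The code was tested on simulated data.

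Members and lists were chosen with earlier results of these data known. All 50 members could be named; per comparison and role the largest change was named, and values by sample were given for a list of 27 members and for Gins1, Gins4, Cdc7, Prim1 and Prim2. Of the wider list of 60, the 3 largest rises and falls among calls were named. Same-numbered samples deviated together from their group means in the comparison of lines in normoxia (correlations 0.378, 0.498 and 0.355 across genes), as did samples 1 and 3 across numbers (0.347 and 0.358), while sample 2 stood apart in both groups; in the other comparisons they did not; the labels give the numbers without saying what they mark. Deposited p-values or fold changes of the authors were not used.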

Additional observations from a re-analysis of the deposited data

Results flagged for a closer look

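In 2 of the 50 members the hypoxia response differed between the lines by the interaction test, where 1.15% of all tested genes were called lower. For Cdc7, the kinase that starts origins, the response in ΔN-VEGF cells minus that in wild-type cells was -1.71 on the log2 scale (SE 0.39, edgeR adjusted p = 0.0396). For E2f2, an activating E2F factor, it was -1.91 (SE 0.29, adjusted p = 0.00889). Without wild-type normoxia 2 the values were -2.22 for Cdc7 (adjusted p = 6.6e-07) and -2.22 for E2f2 (adjusted p = 1.19e-06), and the same test then called the other 48 members too, and 23% of all genes. Leaving out any other sample ended the call of Cdc7 and not that of E2f2. Why these genes passed with all samples was not tested.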

How the results depend on the processing

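The falls in ΔN-VEGF hypoxia kept their direction in every setting run: 34 to 47 members fell with 1 sample left out (20.4% to 34.3% of all genes), and the median ran from -2.03 to -1.62. Of these, 34 came without ΔN-VEGF normoxia 2; an adjusted p below 0.01 gave 32 (18.5%) and a fold of 2 gave 41 (12.7%). Rises there were 0 to 1 with 1 sample left out (22.5% to 32.8%) and 1 in the samples compared alone (31.9%), also with the block. The 2 rises without both normoxia samples numbered 2 were Prim2 and E2f1. In wild-type cells the falls were 2 to 9 and the rises 0 to 27 with 1 sample left out (all genes 12.2% to 26.9% and 14.6% to 27.1%), the 9 without sample 1 or 3 of normoxia and the 27 without sample 2, and the median ran from -0.77 to 0.41. Without both samples numbered 2, 35 rose (32.8% of all genes) and the median was 0.41. Total counts gave 8 falls (32.7%), the samples compared alone 2 (11.1%), an adjusted p below 0.01 2 (10.5%) and a fold of 2 2 (6.53%); the replicate block gave 2 rises (19.7%), and 0 falls in the 6 samples (5.09%). Between lines in normoxia the rises were 0 to 50 and the median 0.12 to 1.33 with 1 sample left out (0.376% to 25.7% of all genes rose), and 50 (27.8%) and 1.07 without both samples numbered 2. Between lines in hypoxia 1 to 44 fell with 1 sample left out (4.49% to 21.2%), 17 by DESeq2 (9.41%), 28 with total counts (22.2%), 20 with no filter (3.89%), 19 with the replicate block (10.4%) and 1 at an adjusted p below 0.01 (3.84%). The 6 samples alone, with or without the block, and the fit without both samples numbered 2 gave 48 falls and 1 rise each (28.3% to 31.2% and 27.5% to 30% of all genes). In the interaction 1 to 50 fell (0.151% to 23%) and the median ran from -2.44 to -1.13 with 1 sample left out. DESeq2 gave 8 (3.33%), total counts 10 (5.13%), no filter 6 (0.712%), the replicate block 4 (1.13%), an adjusted p below 0.01 1 (0.136%), and the fit without both samples numbered 2 gave 50 (27%) with a median of -2.19. DESeq2 gave no adjusted p for 6 members. Between lines in normoxia every same-numbered pair correlated, as samples 1 and 3 also did across numbers. There the replicate block changed no call of a member: 0 rose and 0 fell (1.55% and 2.82% of all genes), with a median of 0.52. Elsewhere the numbers are shared labels.

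Signs reversed for single genes. In wild-type hypoxia, 35 of 50 members, and 9.74% of all genes, went from negative to positive without wild-type normoxia 2. Among those named as the largest of a role, Chaf1b, Fen1 and Rrm2 went to 0.121, 0.618 and 0.267 (lowest with another sample left out -1.265, -0.941 and -1.697) and to 0.12, 0.61 and 0.267 without both samples numbered 2. In ΔN-VEGF hypoxia, E2f1 went to -0.35 with total counts, -0.048 with no filter and -0.094 and -0.102 without ΔN-VEGF normoxia 1 or 3 (0.353 without 2), and Rpa3 to 0.036 without ΔN-VEGF normoxia 2 and 0.038 without both. Scaling by total counts moved the median of all genes from -0.07 to -0.30 in wild-type hypoxia, from -0.01 to -0.41 in ΔN-VEGF hypoxia and from -0.02 to -0.24 between lines in hypoxia. The cause of these changes was not tested. Apart from them, the spread differed with wild-type normoxia 2: the SE of Mcm5 in ΔN-VEGF hypoxia was 0.64 with it and 0.17 without it. Depth, at 30519052 counts or more, limited few members; the lowest, Gins1, stood at 0.521 CPM in 1 sample.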
